A study of Arabidopsis thaliana with 9 samples.

Results

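GID1A and GID1B encode receptors for the plant hormone gibberellin, and their transcripts were followed over 9 Affymetrix expression arrays of Arabidopsis thaliana cultures, 3 arrays for each of 3 genotypes. The probe sets were chosen by their annotation to these genes, which gave 1 probe set for GID1A (locus AT3G05120) and 1 for GID1B (AT3G63010), 2 of the 22746 probe sets tested. The first genotype was wild type of the Columbia ecotype. The second was 35S:AGL15, where the viral 35S promoter drives constitutive expression of AGL15, a gene for a MADS-domain transcription factor. The last was the double mutant agl15-4 agl18-1, which has loss-of-function insertions in AGL15 and in the related gene AGL18. All were of the Columbia ecotype. By the series' design text, somatic embryos form at the shoot apex more often in 35S:AGL15 and less often in the double mutant than in wild type. All 3 genotypes germinated and grew in shaken liquid medium with the synthetic auxin 2,4-D at 4.5 µM, 2% sucrose and 10 mM MES, with a daily cycle of 23 h light and 1 h dark, and tissue was collected on day 10. The labels call the 3 arrays of a genotype biological replicates. The number of independent 35S:AGL15 lines is not given in the sources used here.

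Gibberellin promotes germination, stem elongation and flowering. It binds the soluble GID1 receptors, of which Arabidopsis has GID1A, GID1B and GID1C, and the occupied receptor then binds DELLA proteins, which repress growth. The F-box protein SLY1 marks the bound DELLA proteins for destruction, so that gibberellin acts by removing a repressor. GID1 transcripts are known to be lowered by gibberellin in seedlings, a feedback on the pathway. AGL15 is known from earlier work to act on gibberellin metabolism genes, with GA2OX6, an inactivating enzyme, among its direct targets. No gene of gibberellin synthesis or inactivation in the lists used, GA2OX6 included, was among the probe sets annotated to 1 gene, so these genes were not analysed here.

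The deposited value of a probe set is an array intensity on a linear scale, in arbitrary units. The highest of 27 control probe sets for Bacillus transcripts was taken as the background level of an array and ran from 13.7 to 40.5. Spike-in control probe sets were brighter in 35S:AGL15 replicate 3 and all 3 double mutant arrays (geometric means 852 to 1374) than in the other 5 arrays (563 to 718). Of the embryo markers, 3 of 12 were measured (BBM, OLEO3 and PAP85). They were above background on every array, and their summed intensity ran from 659 to 1005 on the wild type arrays, from 1986 to 3200 with constitutive AGL15 and from 961 to 1604 in the mutant. OLEO3, an oil body protein gene, carried most of that difference and rose 6.21-fold with constitutive AGL15 (limma adjusted p = 0.0127). PAP85 rose 4.48-fold there (limma adjusted p = 0.0382). In the mutant OLEO3 was 2.20-fold wild type (limma adjusted p = 0.0684) and PAP85 1.95-fold (limma adjusted p = 0.164), neither under 0.05. BBM was at a log2 change of 0.03 with constitutive AGL15 and 0.07 in the mutant. Of 8 shoot apical meristem markers 2 were measured, CLV3 and LAS, of which CLV3 was below background on all 9 arrays. The summed level of this pair was 98.0 to 192 in wild type, against 63.1 to 90.6 with constitutive AGL15 and 107 to 122 in the mutant. The 2 measured root markers (of 8) summed to 151 to 246, 248 to 341 and 224 to 304 in the same order, and the 3 measured leaf photosynthesis markers (of 8) to 3892 to 5428, 2717 to 3907 and 4232 to 4952. RCA made up most of the leaf sum, and the other leaf markers went opposite ways in the mutant, where PRK fell 2.20-fold (limma adjusted p = 0.00872) and LHCB4.2 was 1.58-fold wild type (limma adjusted p = 0.160). Against wild type, LAS, the root markers EXPA7 and EXPA18, and RCA passed in neither altered genotype. In 35S:AGL15 their limma adjusted p was 0.151, 0.428, 0.256 and 0.267, in that order. In the mutant the lowest of the 4 was 0.0916, for EXPA18. The part of all these markers in the results below was not tested. RNA came from whole cultures, so a different share of cells of one type and a different amount of transcript per cell cannot be told apart.

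GID1A was measured well above background on every array, and its intensity lay between 884 and 1843. In wild type it was 884, 972 and 1133 in replicates 1 to 3. In 35S:AGL15 it was 1427, 1344 and 1113, and in the double mutant 1123, 1732 and 1843. Replicate 3 of 35S:AGL15 and replicate 1 of the double mutant lay below the brightest wild type array, so that both altered genotypes overlapped wild type, while their other arrays were all brighter than every wild type array. The wild type mean was 997 ± 127, the 35S:AGL15 mean 1295 ± 163 and the mutant mean 1566 ± 388 (SD, n = 3).

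GID1B varied more between arrays of a genotype than GID1A did. Its intensity in wild type was 637, 457 and 575. In 35S:AGL15 it was 724, 1232 and 495, and in the double mutant 699, 1291 and 1253. All 3 double mutant arrays were brighter than all 3 wild type arrays, although replicate 1 exceeded the highest of them by little. The 35S:AGL15 arrays covered nearly the whole range of the other genotypes. The wild type mean was 556 ± 91.8, the 35S:AGL15 mean 817 ± 377 and the mutant mean 1081 ± 331 (SD, n = 3), so the SD in 35S:AGL15 was 46.1% of the mean, against 12.6% for GID1A on the same arrays.

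**Figure D1:**
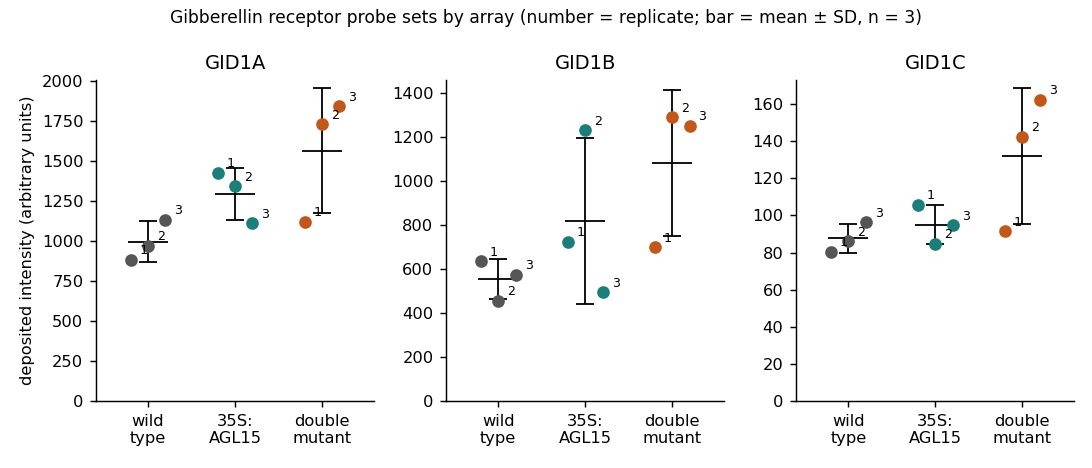
Deposited intensity (arbitrary units, linear axis from 0) of the GID1A, GID1B and GID1C probe sets on each array, with the replicate number beside each point and the mean ± SD of 3 arrays as a bar. In each panel replicates 2 and 3 of the double mutant lie above all wild type arrays, while its replicate 1 lies near them.

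Whether receptor transcripts differ in cultures that lack AGL15 and AGL18 function was read from the mutant arrays against the wild type arrays. Both members were higher in mean, but neither passed an adjusted p of 0.05. GID1A was 1.54-fold wild type (log2 change 0.63, SE 0.23, 95% confidence interval 0.09 to 1.17, limma adjusted p = 0.10). GID1B was 1.89-fold wild type (log2 change 0.92, SE 0.38, interval 0.05 to 1.78, limma adjusted p = 0.126). In this comparison 18.9% of all probe sets passed the threshold, 3.9% as higher and 15% as lower, and 0 of the 2 members did. Before adjustment the limma p was 0.0279 for GID1A and 0.0401 for GID1B, a level that 34.3% of all probe sets reached. Groups did not overlap, with the double mutant higher, for GID1B and for 15.8% of all probe sets. By the exact two-sided permutation test over arrays, GID1B had p = 0.1, the smallest that 3 arrays against 3 allow, and GID1A had p = 0.2.

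The same was asked of cultures with constitutive AGL15. GID1A was 1.30-fold wild type (log2 change 0.38, SE 0.23, interval −0.16 to 0.92, limma adjusted p = 0.440) and GID1B 1.38-fold (0.47, SE 0.38, interval −0.40 to 1.33, limma adjusted p = 0.548). Neither passed, where 3.68% of all probe sets did (1.38% as higher, 2.31% as lower), and neither reached an unadjusted limma p of 0.05, which 17.8% did. For both members the interval included 0 and the arrays of the 2 genotypes overlapped. For GID1B, 35S:AGL15 replicate 2 held most of the difference, since without that array the log2 change was 0.12 in place of 0.47. Without replicate 3, whose spike-in controls were bright, it was 0.78 (limma adjusted p = 0.393).

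Set against each other, the altered genotypes overlapped for both members, and neither difference passed. GID1A in 35S:AGL15 was at −0.25 on the log2 scale relative to the double mutant (interval −0.79 to 0.29, limma adjusted p = 0.516) and GID1B at −0.45 (interval −1.32 to 0.41, limma adjusted p = 0.460), where 15.7% of all probe sets passed, 10.4% as higher in 35S:AGL15 and 5.27% as lower. Neither reached an unadjusted limma p of 0.05, which 31.3% did. The order of the group means was thus double mutant, 35S:AGL15, wild type for both members on the deposited scale. With arrays scaled on the spike-in controls, 35S:AGL15 lay above the double mutant instead, at 0.30 for GID1A and 0.094 for GID1B. No neighbours in that order differed past the threshold, and the arrays of neighbours overlapped for both members. The comparisons with wild type share the wild type arrays, so the higher means in both are not independent of each other. The intervals do not exclude changes of 1.89-fold for GID1A or 2.52-fold for GID1B in 35S:AGL15, nor no change.

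GID1C (AT5G27320), the third receptor, gave the dimmest of the receptor probe sets, though above background on every array. Its intensity was 80.6, 86.0 and 96.3 in wild type, 106, 84.9 and 94.7 with constitutive AGL15, and 91.6, 142 and 162 in the mutant. As for GID1A, replicates 2 and 3 of the double mutant stood above all other arrays and replicate 1 lay within the wild type range. GID1C was at 0.55 in the double mutant (SE 0.24, limma adjusted p = 0.141) and at 0.12 in 35S:AGL15 (SE 0.24, limma adjusted p = 0.824) on the log2 scale. It passed in neither on the deposited scale. In the double mutant GID1C passed in 4 of 20 alternatives. Among them were quantile normalization (1.08, limma adjusted p = 0.0273), median centring (1.07, limma adjusted p = 0.0260) and array weights (0.73, limma adjusted p = 0.0107). With arrays scaled on the spike-in controls GID1C was at −0.18 there (limma adjusted p = 0.773). Intensities of different probe sets are not compared here as transcript amounts, since probe sets differ in how strongly they bind.

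How the arrays are scaled bears directly on these values, because the median probe set itself was at −0.13 with constitutive AGL15 and at −0.16 in the mutant, on the log2 scale. Relative to that median, GID1A was at 0.50 and GID1B at 0.59 in 35S:AGL15, and at 0.78 and 1.08 in the double mutant. For the mutant, 6.68% of all probe sets had a higher change than GID1B and 13.3% a higher one than GID1A, and in 35S:AGL15 13.4% and 16.7% did. These positions are the same under any scaling that shifts a whole array by 1 factor, whereas the changes themselves are not. With arrays centred on their median, both members passed in the double mutant, GID1A at 1.15 (limma adjusted p = 0.0142) and GID1B at 1.44 (limma adjusted p = 0.0166). With arrays scaled on the spike-in controls, GID1A in the double mutant turned to −0.11 (limma adjusted p = 0.874) and GID1B was at 0.19 (limma adjusted p = 0.816). Quantile normalization gave 0.63 and 1.06, neither past the threshold. All double mutant arrays had bright spike-in controls and no wild type array did, so an array difference and a genotype difference cannot be told apart in this comparison. Within the 5 arrays with dimmer controls, 35S:AGL15 against wild type gave 0.48 for GID1A (limma adjusted p = 0.387) and 0.78 for GID1B (limma adjusted p = 0.376). These changes are by construction those found without 35S:AGL15 replicate 3, so they are not a separate check. Within the 4 arrays with brighter controls, 35S:AGL15 replicate 3 against the double mutant gave −0.46 for GID1A (limma adjusted p = 0.540) and −1.07 for GID1B (limma adjusted p = 0.301), with the lone array assumed to vary like the others.

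**Figure D2:**
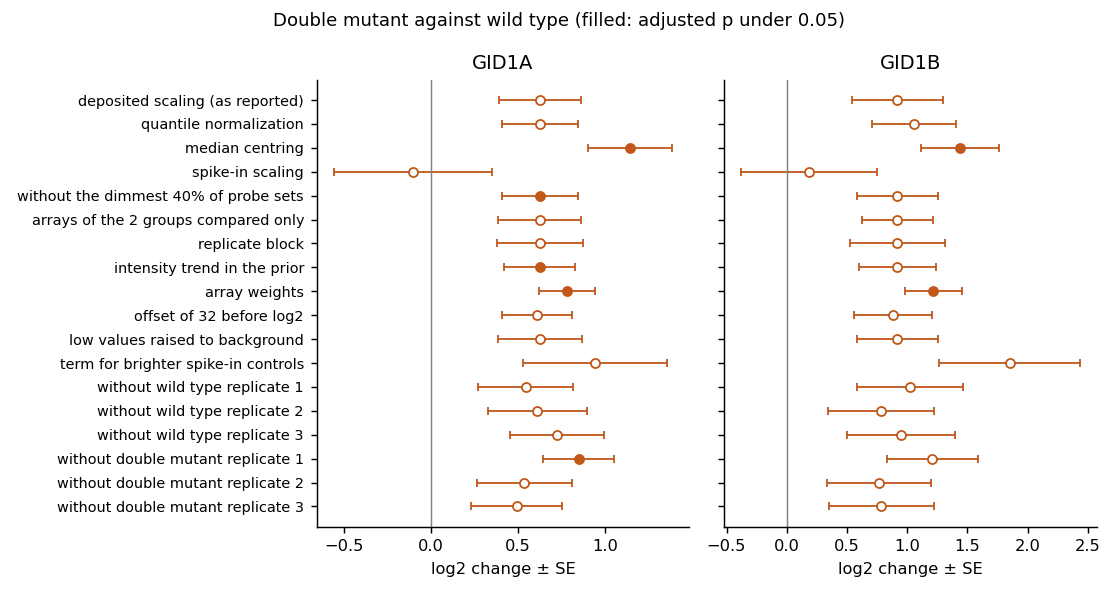
Log2 change (± SE) of GID1A and GID1B in the double mutant against wild type under each way of processing the arrays, with filled points where the limma adjusted p was under 0.05. The points stay to the right of 0 except GID1A under spike-in scaling (−0.11), and median centring and array weights are the settings at which both members passed.

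A single double mutant array, replicate 1, set much of the spread within that genotype. The SE of the fit pools all genotypes. Without that array it was 0.20 in place of 0.23 for GID1A and stayed at 0.38 for GID1B, although the contrast then held fewer mutant arrays. Without 35S:AGL15 replicate 2, which leaves the arrays of this contrast unchanged, the SE of GID1B was 0.30. Without replicate 1 of the double mutant, GID1A was at 0.85 and passed (limma adjusted p = 0.0389), and GID1B was at 1.21 (limma adjusted p = 0.0806). That array had the brightest spike-in controls (1374) and the highest background level (40.5) of all 9. Without replicate 2 GID1A was at 0.54 and GID1B at 0.76, and without replicate 3 at 0.49 and 0.79. With estimated array weights, which count deviating arrays less, both members passed in the double mutant, at 0.78 (limma adjusted p = 0.0072) and 1.22 (limma adjusted p = 0.00535).

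The difference between GID1B and GID1A on the same array does not depend on a common scaling factor, and shows whether the receptors changed unequally. Relative to the wild type mean, GID1B less GID1A was 0.38, −0.24 and −0.13 on the 3 wild type arrays, −0.13, 0.72 and −0.32 with constitutive AGL15, and 0.16, 0.42 and 0.29 in the mutant, on the log2 scale. The double mutant arrays all lay within the span of the wild type arrays or just above it. On average GID1B changed by 0.29 more than GID1A in the double mutant (exact two-sided permutation p = 0.3) and by 0.09 more in 35S:AGL15 (p = 0.8, exact), where no p below 0.1 was possible. The difference between the altered genotypes was −0.20 (exact p = 0.6). This test could not pass 0.05 whatever the values, so it does not show that the receptors changed alike.

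**Figure D3:**
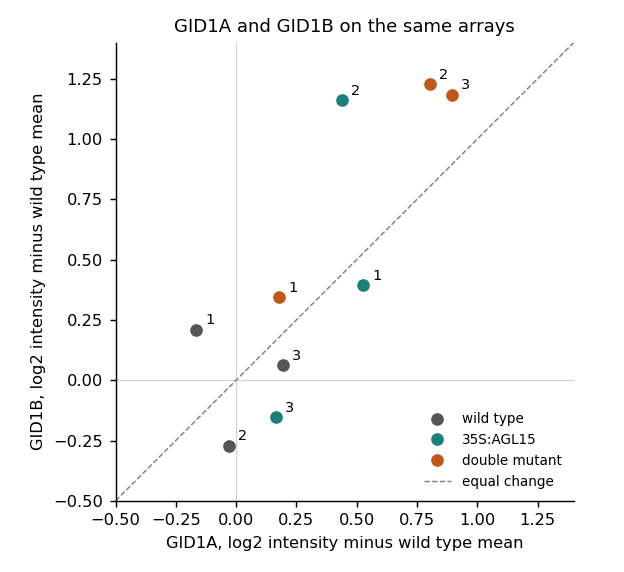
Log2 intensity of GID1B (vertical) against GID1A (horizontal) on each array, both less their wild type mean, with the replicate number beside each point and a dashed line of equal change. Replicate 2 of 35S:AGL15 lies farthest above the line, with GID1B at 1.16 and GID1A at 0.44.

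Across the 9 arrays the members' log2 intensities correlated at r = 0.83. After the mean of each genotype was removed, r was 0.66, so part of the shared variation lay between arrays of a genotype. GID1A and GID1C correlated at 0.89 (0.88 after removal of the genotype means), and GID1B and GID1C at 0.64 (0.35). These are descriptions over 9 arrays that share their scaling. The log2 median intensity of an array correlated with GID1A at −0.62 and with GID1B at −0.36, and the log2 mean of the spike-in controls at 0.22 and 0.13.

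Among the other genes of the pathway, 9 of 56 listed were measured. In the double mutant 0 of these 9 passed by limma, 3 reached an unadjusted p of 0.05, and 8 had a positive change, beside 18.9%, 34.3% and 41.8% of all probe sets, with a median of 0.49 beside −0.16 over all probe sets. These signs depend on the scaling, since all but NPF3 of the 8 were negative with arrays scaled on the spike-in controls. In 35S:AGL15, 1 of the 9 fell and 0 rose, beside 2.31% and 1.38% of all probe sets, with 3 positive changes and a median of −0.10 beside −0.13 over all probe sets. Between 35S:AGL15 and the double mutant, 1 of 9 passed, as lower, beside 5.27% of all probe sets.

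The measured signalling genes act on DELLA proteins. SLY1, the F-box protein that recruits DELLA proteins for degradation, ran from 678 to 742 in wild type, from 700.0 to 1173 with constitutive AGL15 and from 690.0 to 850.0 in the mutant, with log2 changes of 0.37 and 0.14 against wild type. Its relative SNE (also SLY2), which can take over part of that role, was 452, 378 and 379 in wild type, 335, 487 and 320 with constitutive AGL15, and 764, 565 and 600.5 in the mutant. The mutant arrays of SNE lay above all others. Over all probe sets, the mutant lay wholly above wild type for 15.8% and wholly above 35S:AGL15 for 13.2%. SNE had a log2 change of 0.67 (limma adjusted p = 0.0714) against wild type and 35S:AGL15 at −0.77 (limma adjusted p = 0.0512) against the double mutant, neither of which passed. Scaled on the spike-in controls, the change of SNE in the double mutant was −0.065, the 1 reversal among 20 alternatives. In 8 of these 20 SNE passed against wild type (lowest limma adjusted p = 0.00651). Between the altered genotypes it passed in 8 of 21 alternatives and reversed in 0. SPY, an enzyme that adds fucose to DELLA proteins and restrains gibberellin responses, was at 518, 1256 and 452 in 35S:AGL15, with the same bright replicate 2 as GID1B, against 669 to 860 in wild type and 932 to 1028 in the double mutant. Its log2 changes were −0.21 and 0.33. SEC, which adds N-acetylglucosamine to DELLA proteins, was at −0.70 with constitutive AGL15 and −0.32 in the mutant (limma adjusted p = 0.381 and 0.592). The DELLA genes themselves were not analysed here.

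XERICO, a RING protein gene that DELLA proteins are known to activate, was the 1 gibberellin-responsive gene measured of 9 listed. Its intensity was 1271 to 1347 in wild type, 1558 to 1904 with constitutive AGL15 and 1482 to 2133 in the mutant. Both altered genotypes lay above wild type on every array, at log2 changes of 0.43 (limma adjusted p = 0.282) and 0.47 (limma adjusted p = 0.118), but neither passed, and the second was −0.26 with arrays scaled on the spike-in controls. Groups did not overlap, with the altered genotype higher, for 8.23% of all probe sets in 35S:AGL15 and for 15.8% in the double mutant.

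Of the transporters that can carry gibberellin, SWEET13, mainly known as a sucrose transporter, changed. It was 155, 265 and 165 in wild type, 41.6, 57.9 and 71.1 with constitutive AGL15, and 240.1, 283 and 275 in the mutant. No 35S:AGL15 array reached any other, a separation below wild type that 14.8% of all probe sets showed. SWEET13 fell 3.41-fold in 35S:AGL15 against wild type (log2 change −1.77, SE 0.28, limma adjusted p = 0.0165) and was 4.78-fold lower there than in the double mutant (log2 −2.26, limma adjusted p = 0.00482). The call against wild type ended without wild type replicate 2 (−1.53, limma adjusted p = 0.0580) and without 35S:AGL15 replicate 1 (−1.56, limma adjusted p = 0.0580), and also under spike-in scaling (−1.96, limma adjusted p = 0.0593), in a fit of these groups alone (limma adjusted p = 0.0545) and within the arrays with dimmer spike-in controls (−1.95, limma adjusted p = 0.0926). The call against the double mutant ended with a term for brighter spike-in controls (−1.90, limma adjusted p = 0.0581) and within the arrays with brighter controls (−1.90, limma adjusted p = 0.153). Both values rest on 35S:AGL15 replicate 3 alone for that genotype, and the change was −1.90 in place of −2.26. Its paralogue SWEET14 was dim, from 23.3 to 51.6 over all arrays, with log2 changes of −0.04 and 0.56 in 35S:AGL15 and the double mutant. The nitrate transporter relative NPF3, a gibberellin importer, was at −0.63 and 0.73, with neither change past the threshold.

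**Figure D4:**
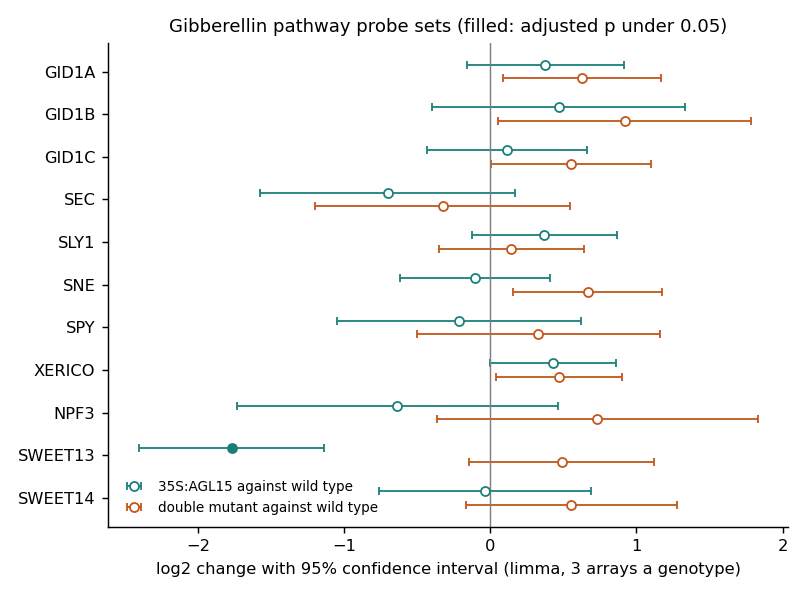
Log2 change with 95% confidence interval for the 11 measured gibberellin pathway probe sets, with constitutive AGL15 and in the mutant, each against wild type. Only SWEET13 in 35S:AGL15 (−1.77) is filled as passing an adjusted p of 0.05, and the intervals of GID1A and GID1B in 35S:AGL15 include 0.

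GID1 receptors belong to a family of plant carboxylesterases (CXE), from which they have lost the esterase activity. Of 17 listed CXE relatives 12 were measured, and 9 were above background on every array. None passed in 35S:AGL15, by limma, with 3 at an unadjusted p under 0.05, beside 3.68% and 17.8% of all probe sets. Against wild type, CXE18 passed as lower in the mutant and 0 passed as higher, beside 15% and 3.9% of all probe sets, with 4 at an unadjusted p under 0.05, beside 34.3%. One of those 4 was CXE8, which was above background on 1 wild type array. The median log2 change of the 12 was 0.16 with constitutive AGL15 and 0.15 in the mutant, and that of the 9 above background on every array was 0.08 and 0.27. Over all probe sets the medians were −0.13 and −0.16. CXE18 was 630.0, 539.5 and 438 in wild type, 406, 420.4 and 387 with constitutive AGL15, and 216, 322 and 288 in the mutant, where it fell 1.95-fold (log2 change −0.96, SE 0.21, limma adjusted p = 0.0179). That call ended without wild type replicate 1 (−0.84) or 2 (−0.95), without double mutant replicate 3 (−1.01), under quantile normalization (−0.67), under median centring (−0.45) and with a term for brighter spike-in controls (−0.87). CXE15 and CXE6 had the highest changes of the 9 in 35S:AGL15, at 1.22 (limma adjusted p = 0.0678) and 1.18 (limma adjusted p = 0.0890), and were at 0.27 and 0.78 in the double mutant. CXE16 was at 0.25 with constitutive AGL15 and 0.67 in the mutant (limma adjusted p = 0.0617), close to GID1A. CXE20 was at 0.19 and 0.53, CXE4 at −0.53 and 0.70, CXE11 at −0.34 and 0.03, CXE1 at −0.72 and −0.13 and CXE2 at 0.08 and −0.14, in the same order. CXE7, CXE8 and CXE9 were below background on at least 1 array, and no size is given for them.

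Genes with the most similar pattern over the 9 arrays were sought among 8279 other probe sets annotated to 1 gene and above background on every array. For GID1A the 5 with the highest Pearson correlation were AT5G08139 (r = 0.98), DER1, which encodes a Derlin of the endoplasmic reticulum (0.96), AT4G29870 (0.94), AT5G10710 (0.94) and AT2G36090 (0.93). For GID1B they were IAGLU, a glucosyltransferase of the auxin indole-3-acetic acid (0.96), AT1G06890 (0.96), AT1G23050 (0.96), AT5G65660 (0.95) and AT3G15530 (0.94). Their correlations were 0.86 to 0.98 after removal of the genotype means, over the same arrays on which they were picked. Of these 10 genes, AT4G29870 (log2 change 0.82, limma adjusted p = 0.0253) and AT2G36090 (1.41, limma adjusted p = 0.0178) rose in the double mutant and 0 passed in 35S:AGL15, where 3.9% and 1.38% of all probe sets passed as higher. As the 10 were picked for following the receptors, whose means were highest in the double mutant, nothing is read from that count. The other receptors ranked lower. GID1C came 14th and GID1B 49th in likeness to GID1A, and GID1A came 89th and GID1C 578th in likeness to GID1B.

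**Figure D5:**
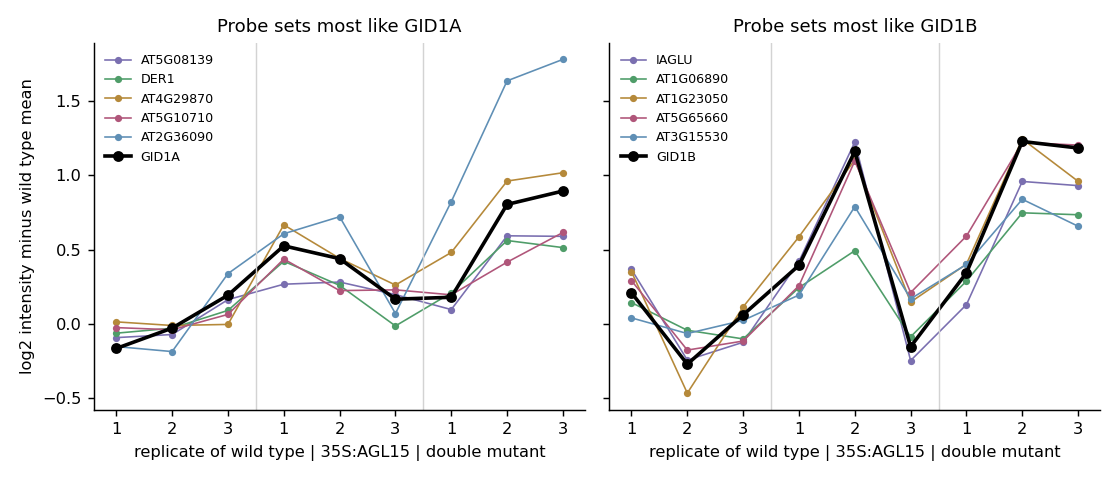
Log2 intensity less the wild type mean (vertical) on the 9 arrays (horizontal, replicates 1 to 3 of each genotype, whose order has no meaning) for GID1A and GID1B in black and the 5 probe sets most like each in colour. GID1B and its 5 likest genes share a high value in replicate 2 of 35S:AGL15 and in replicates 2 and 3 of the double mutant.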

How the data were processed

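Total RNA, 4 µg per sample, was labelled with biotin as cRNA, per the labels' protocols. The authors deposited 1 linear intensity per probe set and array. How probes were summarised and background removed is not given in the sources used here. From the values, a mean trimmed by 2% at either end was 500.0 to 500.1 on every array, so the arrays share a trimmed mean. After removal of 64 controls among 22810 probe sets, log2 values of the deposited intensities, without an offset, were fitted by genotype over all 9 arrays in limma 3.58.1 in R 4.3.3 (lmFit and eBayes). P-values are two-sided with Benjamini-Hochberg adjustment over the 22746 probe sets of a comparison and a threshold of 0.05. "Rose", "fell" and "passed" refer to it. By the array annotation 13513 probe sets had 1 gene, 503 had several and 8730 had none. The 111 listed loci were all found in the RefSeq gene table (TAIR10.1), through which probe sets were matched. The deposited intensities have no genome positions, and none are printed. The number of arrays limits the precision.

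The members, gene lists and tests were chosen with earlier results of these data known. The rule for naming genes took both receptors, every measured gene of the gibberellin and CXE lists, and the 5 genes most like each receptor. Pairing by replicate number was checked with group means removed. Over 15066 probe sets above background on every array, 3 of 9 same-numbered pairs of arrays correlated above 0.1, and 0 of 9 did over all probe sets. Over the 15066, same-numbered pairs ran from −0.42 to 0.31 and other pairs from −0.60 to 0.63, highest for wild type 1 with 35S:AGL15 2. Same-numbered arrays were not the most alike, so the main fit used no pairing. The check cannot exclude pairing, and what the unlike-numbered arrays share was not tested. The fit was tested on simulated data. Alternatives were other scalings, filters, priors, weights and offsets, a replicate block, a term for the 4 arrays brighter in 18 spike-in probe sets than every wild type array, and leaving out each array. The comparison within arrays of like spike-in controls was chosen after seeing the data. Protein and promoter sequences were not analysed here.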

Additional observations from a re-analysis of the deposited data

How the results depend on the processing

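The small number of arrays limits every value, and the calls of the receptors in the double mutant changed with the scaling, the filter, the prior, array weights and 1 array. GID1A and GID1B kept a positive change without a call in 35S:AGL15 against wild type under all alternatives run. In the double mutant against wild type, GID1A was called under median centring (1.15), without the dimmest 40% of probe sets (0.63), with an intensity trend in the prior (0.63) and with array weights (0.78), and it ran from 0.49 to 0.85 when single arrays were left out, called only without double mutant replicate 1. GID1B was called there under median centring (1.44) and array weights (1.22), and a term for brighter spike-in controls moved it to 1.85 without a call, a value that rests on 35S:AGL15 replicate 3, the 1 array that separates the term from genotype. The replicate block left GID1A at 0.63 (limma adjusted p = 0.143) and GID1B at 0.92 (limma adjusted p = 0.169) in the double mutant and changed no call of the members or the pathway counts. With the block the share of probe sets called was 1.41% for 35S:AGL15 against wild type and 9.08% against the double mutant, in place of 3.68% and 15.7%. The call shares ranged more widely over all alternatives, from 0.207% to 28.4% in 35S:AGL15 against wild type, 0.0264% to 40.3% in the double mutant against wild type and 0% to 34.8% between them. Higher and lower calls in the double mutant were 3.9% and 15% of probe sets as deposited, 7.18% and 9.24% after quantile normalization, 17.9% and 6.93% after median centring and 0.334% and 28.1% after spike-in scaling, and the median change of all probe sets was −0.16, 0.06, 0.36 and −0.89 in that order.

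Spike-in scaling, median centring, quantile normalization, the spike-in term and left-out arrays each turned signs. In the double mutant against wild type spike-in scaling gave −0.11 for GID1A, −0.18 for GID1C, −0.59 for SLY1, −0.065 for SNE, −0.40 for SPY, −0.24 for SWEET13, −0.18 for SWEET14, −0.26 for XERICO, −0.70 for CXE11, −0.46 for CXE15, −0.067 for CXE16, −0.21 for CXE20 and −0.031 for CXE4. In 35S:AGL15 against wild type it gave −0.070 for GID1C and −0.11 for CXE2, and in 35S:AGL15 against the double mutant 0.30 for GID1A, 0.094 for GID1B, 0.11 for GID1C, 0.17 for SEC, 0.0027 for SPY and 0.50 for XERICO. Median centring turned SEC (0.19), CXE1 (0.39) and CXE2 (0.38) in the double mutant against wild type, SNE (0.14), SPY (0.029) and SWEET14 (0.21) in 35S:AGL15 against wild type and SLY1 (−0.053) between the altered genotypes. Quantile normalization turned CXE1 (0.27) and CXE2 (0.27) in the double mutant and SNE (0.077) and SWEET14 (0.16) in 35S:AGL15, and array weights turned CXE20 (−0.060) in 35S:AGL15. The term for brighter spike-in controls turned SEC (0.30), SLY1 (−0.40), NPF3 (−0.43), SWEET13 (−0.046), SWEET14 (−0.43), CXE1 (0.16) and CXE2 (0.021) in the double mutant. That term and the comparison within arrays of like controls give the same change by construction in the comparisons that follow. It was 0.0075 for SNE and 0.065 for SPY in 35S:AGL15, and 0.068 for SWEET14 and 0.038 for XERICO between the altered genotypes. When single arrays were left out, SNE ran from −0.30 to 0.0075, SPY from −0.67 to 0.065, SWEET14 from −0.37 to 0.13 and CXE2 from −0.20 to 0.31 in 35S:AGL15 against wild type, CXE1 from −0.35 to 0.035 and CXE11 from −0.13 to 0.17 in the double mutant, and XERICO from −0.19 to 0.073 between the altered genotypes. The change of GID1B less that of GID1A ran from −0.23 to 0.30 in 35S:AGL15 against wild type and from −0.52 to 0.0026 between the altered genotypes. The causes were not tested.

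The count of called pathway genes in 35S:AGL15 against wild type, 1 as reported, was 0 under spike-in scaling, with the 2 groups compared alone and within arrays of like controls, 5 with array weights and 0 to 2 without single arrays. Where 0 was reported, in the double mutant, it was 2 after quantile normalization, 4 after median centring, 3 with array weights, 1 without the dimmest probe sets, with the 2 groups alone, with the intensity trend and with an offset of 32 before log2, and 0 to 1 without single arrays. Between the altered genotypes, where 1 was reported, it was 3 after quantile normalization, with the offset and with low values raised to background, 2 after median centring, without the dimmest probe sets and with the intensity trend, 5 with array weights, 0 with the spike-in term and within arrays of like controls, and 1 to 3 without single arrays.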
